A study of Danio rerio with 12 samples.

Results

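The transcriptome of dnmt3ba morphant haemogenic endothelium was compared with that of control haemogenic endothelium across all genes of the deposited expression table, and is described here by gene family and function. Testing was not limited to a list of genes, while the families were symbol rules chosen with earlier results of these data known. The comparison used 6 of the 12 samples of the study, namely 3 morphant and 3 control RNA-seq libraries. The table held 25011 genes, of which 18846 had enough reads to be tested. Of the tested genes, 9230 fell into at least 1 of 92 families defined by gene symbol. Some of these families are groups by name alone and give no function. Among them were 1831 tested genes with LOC names, 1434 with si: names and 589 with zgc: names.

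The morphant group came from zebrafish (Danio rerio) embryos injected with a morpholino against dnmt3ba. RNA libraries were assigned to the groups by their titles, MO for morphants and NC for controls. The bisulfite samples of the study were labelled by genotype, as dnmt3ba knockdown for morphants and WT for controls. A morpholino is a synthetic antisense oligonucleotide that blocks the translation or the splicing of its target transcript. Whether and with what control embryos were injected is not stated in the labels, so an effect of injection cannot be told apart from an effect of the target. Embryos of both groups carried the reporters of the Tg(kdrl:mCherry/runx1:en-GFP) line, in which a kdrl promoter drives mCherry in endothelium and a runx1 enhancer drives GFP in blood-forming endothelium. Cells positive for both reporters were sorted from trunks at 36 hours post-fertilisation, about 5000 per sample, and each group had 3 biological replicates of pooled embryos.

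De novo DNA methyltransferases add methyl groups to cytosines that carried none before, and the zebrafish gene dnmt3ba encodes one of them. Methylation of promoters and enhancers is commonly linked to silencing, while methylation within gene bodies is common in transcribed genes. Haemogenic endothelium lines the ventral wall of the dorsal aorta, and its cells leave the vessel wall to become blood stem and progenitor cells. During that change a cell gives up junctions and contacts with the surrounding matrix, so genes of adhesion, matrix and cell division are often followed in it.

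The dnmt3ba transcript itself had normalised counts of 405, 673 and 600 CPM (counts scaled to the size of the library) in morphant libraries, against 499, 789 and 442 CPM in control libraries. The groups overlapped, and the log2 fold change, here and below morphant over control, was -0.04 ± 0.29 (SE, n = 3 each, edgeR quasi-likelihood test, adjusted p = 0.95). Since a morpholino need not lower the level of its target transcript, this count does not check the labels.

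Total estimated counts lay between 24397076 and 25132656 per library. Control 2 was set off from the rest, at 118.3 on a first principal component that held 37.8% of the variance, where the others lay between -72.7 and 14.3. Morphant 2 lay at -12.7, between the other morphants at -72.7 and -59.2 and the other controls at 12 and 14.3. Results are also given without morphant 2 and control 2. This setting was chosen with results of these data known. It can widen the difference between the groups, so it is no independent check of them. Markers of endothelium were detected in every library, with a summed level of 2202 to 2597 TPM (transcripts scaled to the same total in each library) in morphants and 1102 to 1571 TPM in controls. All 6 had a positive log2 fold change, and 3 were higher at an unadjusted edgeR p under 0.05, against 7.58% of all genes. Markers of haemogenic endothelium summed to 643 to 751 TPM in morphants and 745 to 972 TPM in controls. Of these 5 markers, 4 had a negative log2 fold change, with a median of -0.67. At that threshold 3 were lower, against 9.46% of all genes, and 0 higher. Markers of other cell types were present as well. Skeletal muscle markers summed to 9794, 19352 and 8403 TPM in morphants 1 to 3, against 39915, 12760 and 61458 TPM in controls 1 to 3, and macrophage and neutrophil markers to 8739 to 28054 TPM in morphants and 7809 to 24888 TPM in controls. In such bulk libraries fewer cells of a type and less RNA per cell cannot be told apart.

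At an adjusted p under 0.05, 10 genes (0.0531% of those tested) rose and 2 (0.0106%) fell in the edgeR quasi-likelihood test with Benjamini-Hochberg adjustment. At an unadjusted p under 0.05, 1429 genes (7.58%) were higher and 1782 (9.46%) lower. Every morphant library lay above every control library for 2338 genes (12.4%) and below every control library for 2237 (11.9%). These shares are the background for the family counts below, and the median log2 fold change of all tested genes was -0.04. The number of calls depended on single libraries: it was 31 higher and 46 lower without control 2, 18 lower without morphant 2, 1 higher and 0 lower without control 1, and 0 in each direction without control 3, without morphant 1 or without morphant 3. Without both morphant 2 and control 2 it was 490 higher (2.56% of 19121) and 869 lower (4.54%), and DESeq2 on all 6 libraries called 595 higher (3.16%) and 631 lower (3.35%).

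Among the called genes with an established symbol, lnx1 had the highest fold. This gene encodes a ubiquitin ligase known in mammals for binding the cell fate determinant Numb, and it had 142, 139 and 156 CPM in morphants, against 3.03, 6.93 and 7.52 CPM in controls. All morphant libraries thus lay far above all control libraries, with a log2 fold change of 4.64 ± 0.36 (SE, edgeR adjusted p = 0.0094). bmb, the zebrafish gene brambleberry, needed for the fusion of nuclear envelopes in the early embryo, had 86.4, 112 and 83.4 CPM in morphants, against 13.6, 11 and 12.9 CPM in controls (log2 fold change 2.91 ± 0.20, edgeR adjusted p = 0.0056).

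Genes of growth arrest and stress were among the calls. mdm2, a ubiquitin ligase, rose to 140, 132 and 143 CPM in morphants, against 29.8, 27.0 and 26.6 CPM in controls, a narrow range within each group (log2 fold change 2.31 ± 0.16, edgeR adjusted p = 0.0056). cdkn1a, an inhibitor of cyclin-dependent kinases, rose to 116, 95.9 and 106 CPM in morphants, against 14.9, 22.3 and 21.9 CPM in controls (log2 fold change 2.42 ± 0.22, edgeR adjusted p = 0.020). plk2a, a polo-like kinase, was the most abundant of the risers, with 496, 521 and 404 CPM in morphants, against 138, 129 and 160 CPM in controls (log2 fold change 1.73 ± 0.19, edgeR adjusted p = 0.039). The groups of these genes did not overlap. tcima, the counterpart of a human gene for a small regulator of transcription and immune response, had 155, 122 and 96.3 CPM in morphants, against 32.3, 32.5 and 30.1 CPM in controls (log2 fold change 1.98 ± 0.21, edgeR adjusted p = 0.039).

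A pair of the risers is known from vessels. lyve1a, a hyaluronan receptor of lymphatic and venous endothelium, had 394, 265 and 429 CPM in morphants, against 59.9, 38.4 and 60.0 CPM in controls (log2 fold change 2.78 ± 0.28, edgeR adjusted p = 0.036). rgs5b, a regulator of G protein signalling whose mammalian counterpart marks pericytes, had 149, 76.2 and 120 CPM in morphants, against 16.9, 21.4 and 16.0 CPM in controls (log2 fold change 2.66 ± 0.28, edgeR adjusted p = 0.039). For both, the library labelled replicate 2 was the lowest of the morphants, yet above each control.

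The genes that fell were a collagen and a transporter. col1a2, a chain of fibrillar collagen type I, had 83.3, 119 and 90.5 CPM in morphants, against 309, 342 and 348 CPM in controls (log2 fold change -1.77 ± 0.20, edgeR adjusted p = 0.039). slc38a5a, an amino acid transporter of the glutamine-carrying family, had 17.9, 18.4 and 17.9 CPM in morphants, against 59.2, 57.3 and 47.1 CPM in controls (log2 fold change -1.59 ± 0.18, edgeR adjusted p = 0.039). Control 2 lay among the other controls for both genes.

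**Figure D1:**
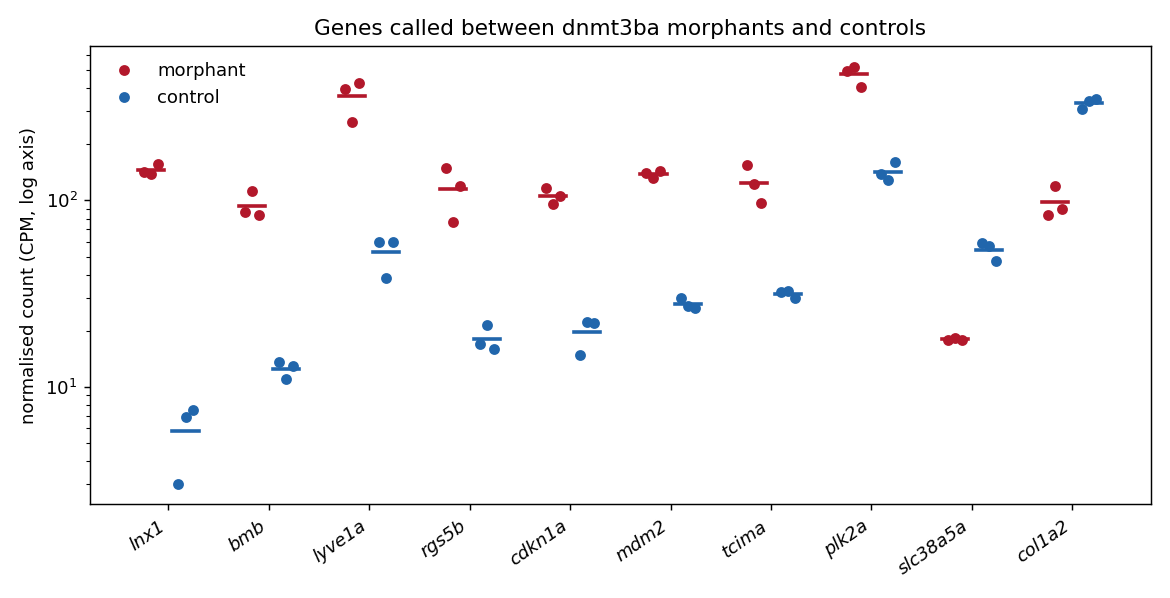
Normalised counts (CPM, log axis) of the 10 reported genes with an established symbol and an adjusted p under 0.05 in the edgeR test, one point per library and a line at the mean of each group (n = 3), with morphants left of controls. The groups do not overlap for any gene, with lnx1 at 139 to 156 CPM in morphants and 3.03 to 7.52 CPM in controls, and slc38a5a and col1a2 lower in morphants.

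The next genes by p-value missed the adjusted threshold in the edgeR test on all 6 libraries, with adjusted p between 0.055 and 0.095. The values below thus describe differences that were not called in that test. DESeq2 on the same libraries called each of these genes, where it called 3.16% of all genes higher and 3.35% lower. In edgeR each had an adjusted p under 0.05 without morphant 2 and control 2, where 2.56% of all genes were called higher and 4.54% lower. On the higher side stood further genes of arrest and DNA damage. rps27l, a relative of a ribosomal protein gene, had 788, 627 and 759 CPM in morphants, against 106, 29.9 and 83.3 CPM in controls (log2 fold change 3.31 ± 0.45). gadd45aa, known in mammals for its induction by growth arrest and DNA damage, had 60.5, 25.4 and 39.2 CPM in morphants, against 6.15, 3.74 and 5.43 CPM in controls. The cyclin ccng1 was far more abundant, at 1339, 1548 and 1575 CPM in morphants, against 492, 282 and 461 CPM in controls, and a further polo-like kinase, plk3, averaged 166 ± 17.6 CPM in morphants and 58.0 ± 11.2 CPM in controls (SD, n = 3 each).

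Metabolic genes followed. mat2al, a methionine adenosyltransferase that makes the methyl donor S-adenosylmethionine, had 94.0, 48.2 and 68.7 CPM in morphants, against 11.1, 16.7 and 11.5 CPM in controls (log2 fold change 2.42 ± 0.30). gpd1a, a glycerol-3-phosphate dehydrogenase, averaged 115 ± 18.8 CPM in morphants and 33.9 ± 9.41 CPM in controls (SD, n = 3 each). azin1a, which protects ornithine decarboxylase and so polyamine synthesis, averaged 36.6 ± 4.92 CPM in morphants and 9.69 ± 2.41 CPM in controls. The remaining higher genes were the interferon-inducible ubiquitin-like modifier isg15, the stress factor atf5b, the serpin serpine3, the kinase vrk2, the receptor gpr75, the sorting nexin snx22, slc35f6 and sost, with log2 fold changes between 1.14 and 2.66. sost encodes sclerostin, a secreted Wnt antagonist known from bone, and had 168, 184 and 174 CPM in morphants, against 54.9, 39.8 and 72.7 CPM in controls.

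On the lower side, matrix and muscle genes led. col1a1a, the other main chain of collagen type I, had 41.0, 68.7 and 61.7 CPM in morphants, against 255, 397 and 240 CPM in controls (log2 fold change -2.38 ± 0.29). thbs1a, a thrombospondin, had 3.92, 8.02 and 3.17 CPM in morphants, against 39.8, 33.7 and 44.1 CPM in controls (log2 fold change -2.96 ± 0.38). The fast myosin heavy chain myhz1.1 had 106, 85.0 and 105 CPM in morphants, against 663, 324 and 732 CPM in controls, and its copy myhz1.2 was lower in every morphant too. Counts of both copies were not all whole, so how reads were shared between near-identical myosin genes is uncertain. cdh2, the adhesion molecule N-cadherin, had 19.2, 28.5 and 17.5 CPM in morphants, against 61.4, 62.0 and 56.4 CPM in controls. sema3d and slit2, both secreted guidance cues, had log2 fold changes of -3.46 ± 0.56 and -1.30 ± 0.19, and sema3d was at 0.903 to 2.17 CPM in morphants and 6.93 to 21.8 CPM in controls. anln, which encodes the cytokinesis protein anillin, averaged 24 ± 5.51 CPM in morphants and 105 ± 42.4 CPM in controls (SD, n = 3 each). The others were the glycine transporter slc6a9, the Kell blood group gene kel, the complement inhibitor cd59, the glycogen-debranching enzyme agla, the kinase wnk4a, the mitochondrial folate enzyme aldh1l2 and bif1.1, with log2 fold changes between -2.20 and -1.18.

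Of the 91 families reported, 89 had at least 8 tested members. In 27 of them the share of members at an unadjusted p under 0.05 in one direction was at least 2 times that of all tested genes, 11 toward higher and 16 toward lower levels in morphants, and these are described below. They were picked by that share, so their counts are a description and no test. The mean log2 CPM over members lay higher in every morphant than in every control for 9 of the 89 families (10.1%) and lower for 17 (19.1%), and the groups overlapped for 63.

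**Figure D2:**
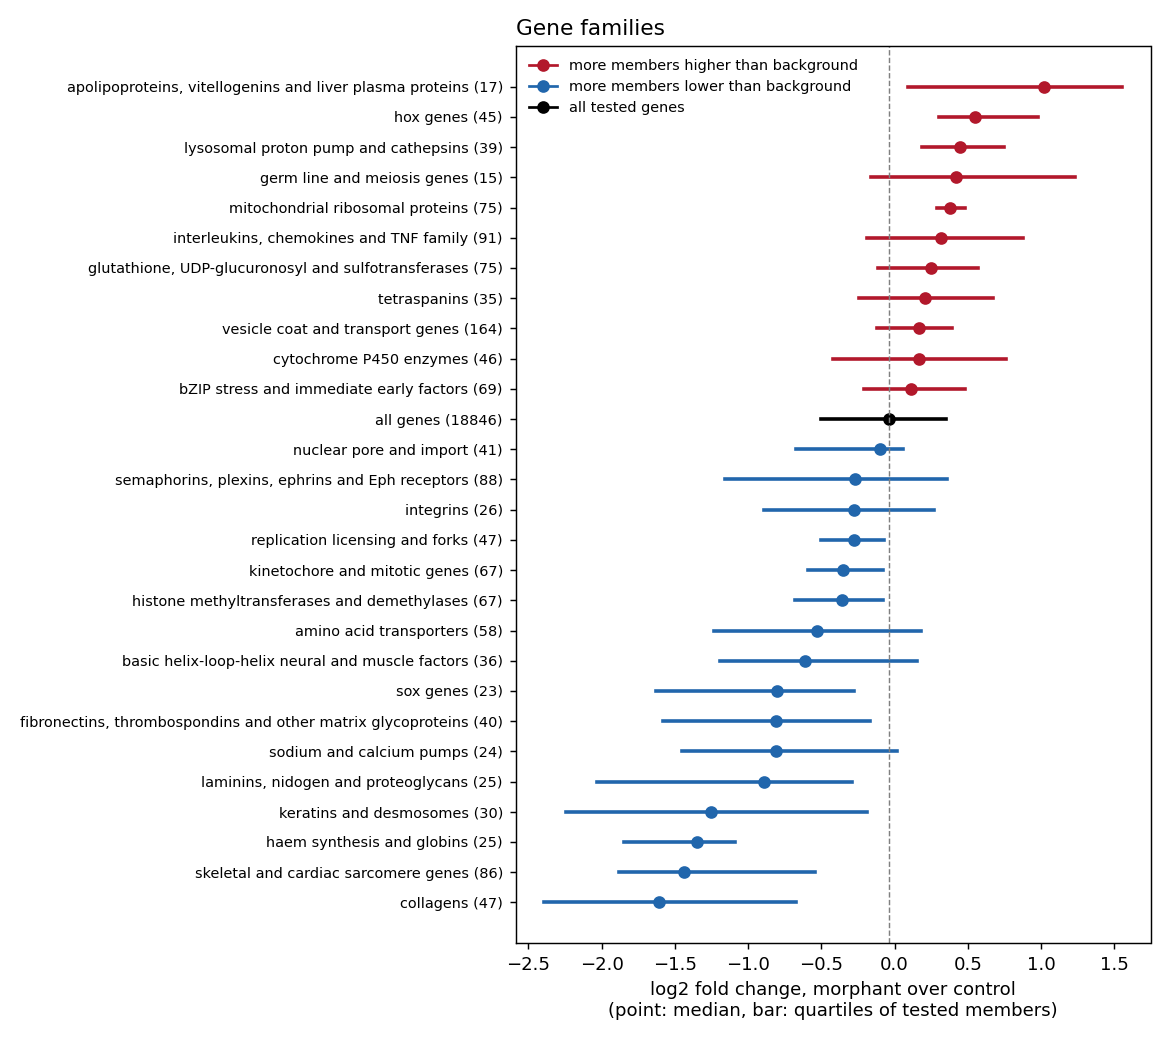
Median (point) and quartiles (bar) of the log2 fold change, morphant over control, over the tested members of the 27 families described, with the number of tested members in brackets and all 18846 tested genes in black. Medians run between -1.61 for collagens and 1.02 for apolipoproteins and other plasma proteins, and the dashed line marks the median of all genes at -0.04.

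Genes of the lysosome had many members higher. The proton pump that acidifies lysosomes and the cathepsins, proteases that work in that acid, had 16 of 39 tested members (41.0%, against 7.58% of all genes) higher and 0 lower, with a median log2 fold change of 0.45. The mean log2 CPM over members was 6.27 ± 0.04 in morphants and 5.93 ± 0.10 in controls (SD, n = 3 each), and the groups did not overlap. Transcripts of the family made up 0.804%, 0.935% and 0.851% of the TPM in morphants, against 0.542%, 0.525% and 0.505% in controls. ctsd, the aspartic protease cathepsin D, had 1056, 843 and 843 CPM in morphants, against 518, 439 and 534 CPM in controls (log2 fold change 0.88 ± 0.19, edgeR adjusted p = 0.13). The pump subunits atp6v1c1a and atp6v1c1b and the cathepsin ctsf had log2 fold changes of 0.77, 0.82 and 0.83, each with the groups apart. The median was 0.49 without morphant 2 and control 2.

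The larger family of vesicle coat and transport genes had 30 of 164 tested members (18.3%) higher and 9 lower, with a median of 0.17 and mean log2 CPM of 5.13 ± 0.04 in morphants and 4.96 ± 0.09 in controls (SD, n = 3 each). Its sorting nexins, which shape and sort membranes on endosomes, had 11 of 33 higher and 0 lower. snx5, of the retromer-linked nexins, had 528, 568 and 512 CPM in morphants, against 314, 262 and 293 CPM in controls (log2 fold change 0.89 ± 0.17, edgeR adjusted p = 0.11). snx4, a nexin of recycling, had 83.4, 74.3 and 74.7 CPM in morphants, against 41.9, 46.1 and 46.6 CPM in controls. The GTPase gene arf6a averaged 152 ± 16.6 CPM in morphants and 91.0 ± 2.78 CPM in controls (SD, n = 3 each). Without morphant 2 and control 2 the vesicle family's median was 0.09, and 16.4% of its members were higher against 11.7% of all genes. Tetraspanins, membrane proteins that organise surface microdomains, had 6 of 35 members higher, among them tspan4b with 305, 286 and 314 CPM in morphants, against 159, 89.0 and 181 CPM in controls. Of the 27 tested genes with tspan names, 6 (22.2%, against 7.58% of all genes) were higher and 2 (7.41%, against 9.46%) lower. The tetraspanin median of 0.21 turned to -0.08 without morphant 2 and control 2. There 8 members (22.9%, against 11.7% of all genes) were higher and 8 (22.9%, against 14.0%) lower.

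Mitochondrial ribosomal proteins, which translate the genes of the mitochondrial genome, had 12 of 75 members (16.0%) higher and 0 lower, and 74 of the 75 had a positive log2 fold change. The median was 0.38 with quartiles of 0.29 and 0.48, a narrow range compared with the quartiles of -0.50 and 0.35 over all genes. The family's mean log2 CPM was 5.59 ± 0.27 in morphants and 5.19 ± 0.21 in controls (SD, n = 3 each), and the groups overlapped because morphant 2 was low. mrpl9 had 53.4, 32.4 and 45 CPM in morphants, against 21.5, 31.4 and 27.3 CPM in controls, and mrpl52 had 32.5, 15.5 and 29.3 CPM in morphants, against 12, 3.88 and 13.7 CPM in controls. These are short genes, with a median length of 0.716 kb against 2.04 kb for all genes. Across all 18846 tested genes the fold change was lower for longer genes (Spearman rho = -0.28, a description over genes that share libraries). With a correction for length the family's median was 0.21. Here and below, that correction also takes out any real difference between morphants and controls that follows gene length. A smaller difference under it thus does not show that the difference was an artefact. The source of the length trend was not tested. With that correction 5 of 75 members (6.67%) were higher, under the 8.92% of all genes, and with a stricter filter on low counts 6 (8%) were, so the excess of higher members was lost in both. Without morphant 2 and control 2 it was larger, with 31 members (41.3%, against 11.7% of all genes) higher. Oxidative phosphorylation genes had a median of 0.47, with 9 of 112 members (8.04%) higher and 0 lower. The count was 26 (23.2%) with the length correction and 46 (41.1%) without morphant 2 and control 2. Cytosolic ribosomal proteins had a median of -0.23, with 1 of 86 members higher and 6 (6.98%) lower. Their mean log2 CPM was 8.33, 8.50 and 8.66 in morphants, against 9.05, 7.76 and 8.95 in controls. Control 2 thus lay below every morphant, and the groups overlapped. In this family 27 members (31.4%, against 7.16% of all genes) were lower with the length correction, and 56 (65.1%, against 14.0%) without morphant 2 and control 2, where its median was -0.52. The shares of both families thus depended on these choices, and the cause was not tested.

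Among transcription factors, hox genes, which set position along the body axis, had 12 of 45 members (26.7%) higher and 1 lower, with a median of 0.55. Their mean log2 CPM was 2.43 ± 0.19 in morphants and 1.77 ± 0.44 in controls (SD, n = 3 each), with control 2 the lowest library, and the groups did not overlap. The members with the smallest p-values belonged to posterior paralogue groups. hoxd10a had 28.6, 30.6 and 24.9 CPM in morphants, against 13.7, 10.5 and 12.4 CPM in controls (log2 fold change 1.20 ± 0.21, edgeR adjusted p = 0.11). hoxd9a had 50.6, 43.5 and 46.7 CPM in morphants, against 26.7, 14.4 and 28.9 CPM in controls. The groups of both genes were apart, as were those of hoxd11a (9.28 ± 0.440 CPM in morphants and 4.51 ± 0.764 CPM in controls, SD, n = 3 each) and hoxc11b, a gene of low level at 2.47 to 6.13 CPM in morphants and 0.867 to 1.27 CPM in controls. The hox median was 0.23 without morphant 2 and control 2. There 10 of 44 members (22.7%, against 11.7% of all genes) were higher and 2 (4.55%, against 14.0%) lower.

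The bZIP factors of stress and immediate early response had 15 of 69 members (21.7%) higher and 2 lower, although the median was only 0.11. Their summed level was 2.60%, 2.23% and 2.27% of the TPM in morphants, against 1.37%, 1.94% and 1.60% in controls. ddit3, induced in unfolded protein stress, had 158, 132 and 178 CPM in morphants, against 77.8, 68.3 and 65.8 CPM in controls (log2 fold change 1.14 ± 0.18, edgeR adjusted p = 0.087). atf3 had 1453, 1724 and 1434 CPM in morphants, against 878, 786 and 966 CPM in controls, and junba, a subunit of the AP-1 factor, had 1779, 1306 and 1661 CPM in morphants, against 766, 822 and 981 CPM in controls. atf5b, named above, had a log2 fold change of 1.89 ± 0.26. Without morphant 2 and control 2 the family had 18 members (25.7%, against 11.7% of all genes) higher and 6 (8.57%, against 14.0%) lower.

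Interleukins, chemokines and the tumour necrosis factor family had 15 of 91 members (16.5%) higher and 4 lower, with a median of 0.32. tnfsf10, a death receptor ligand, had 17.7, 16.5 and 10.3 CPM in morphants, against 5.29, 4.90 and 4.53 CPM in controls (log2 fold change 1.59 ± 0.29, edgeR adjusted p = 0.11). The receptor gene tnfrsf19 averaged 89.8 ± 4.94 CPM in morphants and 43.4 ± 9.04 CPM in controls (SD, n = 3 each), and il17rd, known as a brake on Fgf signalling, averaged 19.6 ± 3.83 CPM in morphants and 7.96 ± 1.51 CPM in controls. cxcl18a.1, a chemokine whose counts were not all whole, had 6.44, 10.7 and 12 CPM in morphants, against 2.04, 0.435 and 1.03 CPM in controls. The family's mean level overlapped between the groups, with morphant 2 below control 1. Macrophage and neutrophil markers, given above, varied among libraries of both groups, and their part in this result was not tested.

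Enzymes of detoxification formed a further group. Cytochrome P450 genes had 12 of 46 members (26.1%) higher and 1 lower, with a median of 0.17, and took 0.127%, 0.114% and 0.129% of the TPM in morphants, against 0.0453%, 0.0619% and 0.0663% in controls. cyp1a, the target gene of the aryl hydrocarbon receptor, was the most abundant of those named, with 1419, 1156 and 1621 CPM in morphants, against 264, 323 and 713 CPM in controls (log2 fold change 1.69 ± 0.39, edgeR adjusted p = 0.14). cyp26b1, which breaks down retinoic acid, had 208, 205 and 143 CPM in morphants, against 76.5, 62.0 and 105 CPM in controls. cyp3c1 and cyp2v1 had log2 fold changes of 1.14 ± 0.20 and 1.25 ± 0.24, with the groups apart. The family median was -0.02 without control 3.

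Genes of glutathione, glucuronide and sulfate conjugation and their redox partners had 12 of 75 members (16.0%) higher and 2 lower, with a median of 0.25. Among those higher was txnl4a (log2 fold change 0.74), which the symbol rule took in though it is known as a splicing gene. Without txnl4a the share would fall just short of 2 times the background, so the family was picked only through that gene. gstp1, a glutathione transferase, had 239, 141 and 189 CPM in morphants, against 74.1, 70.8 and 67.3 CPM in controls (log2 fold change 1.42 ± 0.22, edgeR adjusted p = 0.083). The peroxiredoxin gene prdx1 had 181, 174 and 237 CPM in morphants, against 109, 94.9 and 97.6 CPM in controls, and gstt1b averaged 45 ± 2.42 CPM in morphants and 17.5 ± 5.72 CPM in controls (SD, n = 3 each). Each of these genes had its groups apart.

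A pair of small families completed the higher side. Apolipoproteins and other plasma proteins of yolk and liver had 4 of 17 members higher and 1 lower, with a median of 1.02. apoeb, an apolipoprotein of the yolk syncytial layer and of macrophages, had 598, 624 and 451 CPM in morphants, against 189, 113 and 269 CPM in controls (log2 fold change 1.55 ± 0.32, edgeR adjusted p = 0.13). apoa2 and the transferrin gene tfa were low, at 6.99 to 24.1 CPM and 3.28 to 11 CPM in morphants, against 4.25 to 5.55 CPM and 2.54 to 3.21 CPM in controls. Markers of hatching gland, yolk and liver summed to 29.0 to 86.8 TPM in morphants and 18.1 to 20.2 TPM in controls. Of these, he1.1, ctslb, fabp10a and vtg1 were at 0 in some libraries. The markers include apoa2 and tfa, so their sum is not independent of this family, and their part in the family's values was not tested. Germ line and meiosis genes had 5 of 15 tested members higher and 0 lower, while 45 such genes were in the table. tdrd9, a helicase of the piRNA pathway that silences transposons in germ cells, had 2.04, 1.54 and 2.72 CPM in morphants, against 0.0867, 0 and 0.0855 CPM in controls. The egg coat genes zp3d.2 and zp3a.2 had 3.60 to 6.27 CPM and 4.67 to 7.43 CPM in morphants, against 1.31 to 2.22 CPM and 2.61 to 3.25 CPM in controls. The germ line median of 0.42 turned negative without morphant 2, at -0.14. With a stricter filter on low counts it was -0.29, but only 3 members remained there, 0 of them higher.

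On the lower side, collagens had the lowest median of any family described. Collagens are the triple-helical proteins of interstitial matrix and basement membrane, and 26 of 47 tested members (55.3%, against 9.46% of all genes) were lower and 1 was higher, with a median log2 fold change of -1.61. Their mean log2 CPM was 2.63 ± 0.57 in morphants and 4.16 ± 0.31 in controls (SD, n = 3 each), with no overlap. They made up 0.0313%, 0.140% and 0.0275% of the TPM in morphants, against 0.458%, 0.274% and 0.493% in controls, so morphant 2 and control 2 were the nearest to each other. Besides the chains of collagen type I, basement membrane chains of type IV were low in morphants. col4a5 had 0.667, 2.37 and 1.11 CPM in morphants, against 11.7, 9.58 and 8.76 CPM in controls (log2 fold change -2.85 ± 0.51, edgeR adjusted p = 0.11), and col4a6 averaged 1.50 ± 0.381 CPM in morphants and 7.55 ± 2.23 CPM in controls (SD, n = 3 each). Collagen genes are long, at a median of 5.32 kb, and the median was -1.22 with the length correction and -1.99 without morphant 2 and control 2.

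Other matrix families ran the same way. Laminins, nidogen and proteoglycans had 8 of 25 members (32.0%) lower and 1 higher, with a median of -0.89, and fibronectins, thrombospondins and other matrix glycoproteins had 12 of 40 (30.0%) lower and 2 higher, with a median of -0.81. lum, the collagen-binding proteoglycan lumican, had 1.92, 5.41 and 1.73 CPM in morphants, against 30.7, 23.7 and 13.4 CPM in controls (log2 fold change -2.90 ± 0.54, edgeR adjusted p = 0.11). fn1b, a fibronectin gene, had 3.73, 9.21 and 2.39 CPM in morphants, against 82.4, 14.5 and 30.6 CPM in controls, and ltbp3, which holds latent TGF-beta in the matrix, had 2.28, 8.65 and 3.42 CPM in morphants, against 47.1, 23.4 and 29.0 CPM in controls. For nid1a and lamb2, basement membrane genes, morphant 2 lay above control 2, and the groups overlapped: nid1a had 21.6, 64.5 and 22.8 CPM in morphants, against 188, 57.0 and 199 CPM in controls. Without morphant 2 and control 2 the medians of both families were further from 0, at -1.43 and -1.21. Markers of notochord, a tissue rich in matrix genes, summed to 69.3 to 482 TPM in morphants and 556 to 1552 TPM in controls. They include the collagen genes col8a1a and col9a1a, and their part in these values was not tested.

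Integrins, the receptors that bind such matrix, had 8 of 26 members (30.8%) lower and 2 higher, with a median of -0.28. Their mean log2 CPM was 3.44 ± 0.05 in morphants and 3.65 ± 0.05 in controls (SD, n = 3 each). itgb1a, a beta chain shared by many integrins, had 2.83, 3.20 and 4.49 CPM in morphants, against 12.2, 11.2 and 10.2 CPM in controls (log2 fold change -1.68 ± 0.30, edgeR adjusted p = 0.11). itga3b, a laminin-binding alpha chain whose counts were not all whole, averaged 1.32 ± 0.780 CPM in morphants and 7.01 ± 2.5 CPM in controls (SD, n = 3 each). itgb4, of hemidesmosomes, and itga7, of muscle, overlapped between the groups, since control 2 was low at 4.57 and 2.98 CPM. The integrin median was 0.15 without control 2, -0.24 without both morphant 2 and control 2, and -0.08 with the length correction. With that correction 4 members (15.4%, against 7.16% of all genes) were lower and 3 (11.5%, against 8.92%) higher.

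Genes of guidance and repulsion, the semaphorins, plexins, ephrins and Eph receptors with the slits, had 19 of 88 members (21.6%) lower and 9 (10.2%) higher, so members lay on both sides. sema5a had 9.10, 15 and 6.18 CPM in morphants, against 22.5, 25.4 and 26.8 CPM in controls, and sema5ba 1.22, 4.31 and 0.825 CPM in morphants, against 13.3, 8.16 and 11.5 CPM in controls. The family median was -0.27. With the length correction it was -0.05, and 16 members (18.2%, against 7.16% of all genes) were lower and 16 (18.2%, against 8.92%) higher. The excess of lower over higher members was lost there.

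Families of muscle, epidermis and red cells were also on the lower side. Sarcomere genes of skeletal and cardiac muscle had 35 of 86 members (40.7%) lower and 2 higher, with a median of -1.44. They held 1.71%, 4.02% and 1.66% of the TPM in morphants, against 6.98%, 2.31% and 9.24% in controls. Control 2 thus lay below morphant 2, and the groups overlapped. myom1a, which links thick filaments at the M line, had 7.93, 19.2 and 8.99 CPM in morphants, against 68.7, 45.9 and 95.0 CPM in controls (log2 fold change -2.53 ± 0.42, edgeR adjusted p = 0.097). Without morphant 2 and control 2 the median was -2.53, and 69 members (79.3%, against 14.0% of all genes) were lower. The skeletal muscle markers summed above, several of them members of this family, put the 6 libraries in the same order, and how many muscle cells or how much of their RNA each sorted sample held was not tested.

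Keratins and desmosome genes, which tie epithelial cells together, had 16 of 30 members (53.3%) lower and 2 higher, with a median of -1.25. Their mean log2 CPM was 3.74 ± 0.21 in morphants and 4.87 ± 0.57 in controls (SD, n = 3 each). krt5, a keratin of epidermis, had 56.8, 168 and 26.9 CPM in morphants, against 852, 287 and 895 CPM in controls (log2 fold change -3.02 ± 0.73, edgeR adjusted p = 0.15), and krt94 had 25.3, 36.9 and 17.5 CPM in morphants, against 101, 53 and 142 CPM in controls. The desmosomal plakophilin gene pkp3a averaged 11.3 ± 3.26 CPM in morphants and 29.8 ± 7.35 CPM in controls (SD, n = 3 each). The family median was -0.62 without morphant 2 and control 2. Epidermis markers summed to 2404 to 2735 TPM in morphants and 3445 to 5132 TPM in controls, without overlap. They include krt5 and other keratins, so their sum is not independent of this family, and their part was not tested.

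Haem synthesis and globin genes had 14 of 25 members (56%) lower and 0 higher, with a median of -1.35, and all but 1 of the 25 had a log2 fold change below 0. They held 1.54%, 1.19% and 0.450% of the TPM in morphants, against 4.54%, 1.75% and 1.77% in controls. alas2, the first enzyme of haem synthesis in red cells, had 24.3, 22.1 and 8.62 CPM in morphants, against 171, 59.2 and 47.8 CPM in controls (log2 fold change -2.34 ± 0.58, edgeR adjusted p = 0.16). slc4a1a, the anion exchanger of the red cell membrane, had 109, 85.2 and 30.0 CPM in morphants, against 414, 239 and 154 CPM in controls. ppox, a late enzyme of haem synthesis, and epb41b, of the red cell membrane skeleton, had log2 fold changes of -1.90 ± 0.43 and -2.52 ± 0.56. The groups did not overlap for these genes, and control 1 was the highest library for each. Erythroid markers, some of which are members of this family, summed to 1377 to 4698 TPM in morphants and 4709 to 14472 TPM in controls.

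**Figure D3:**
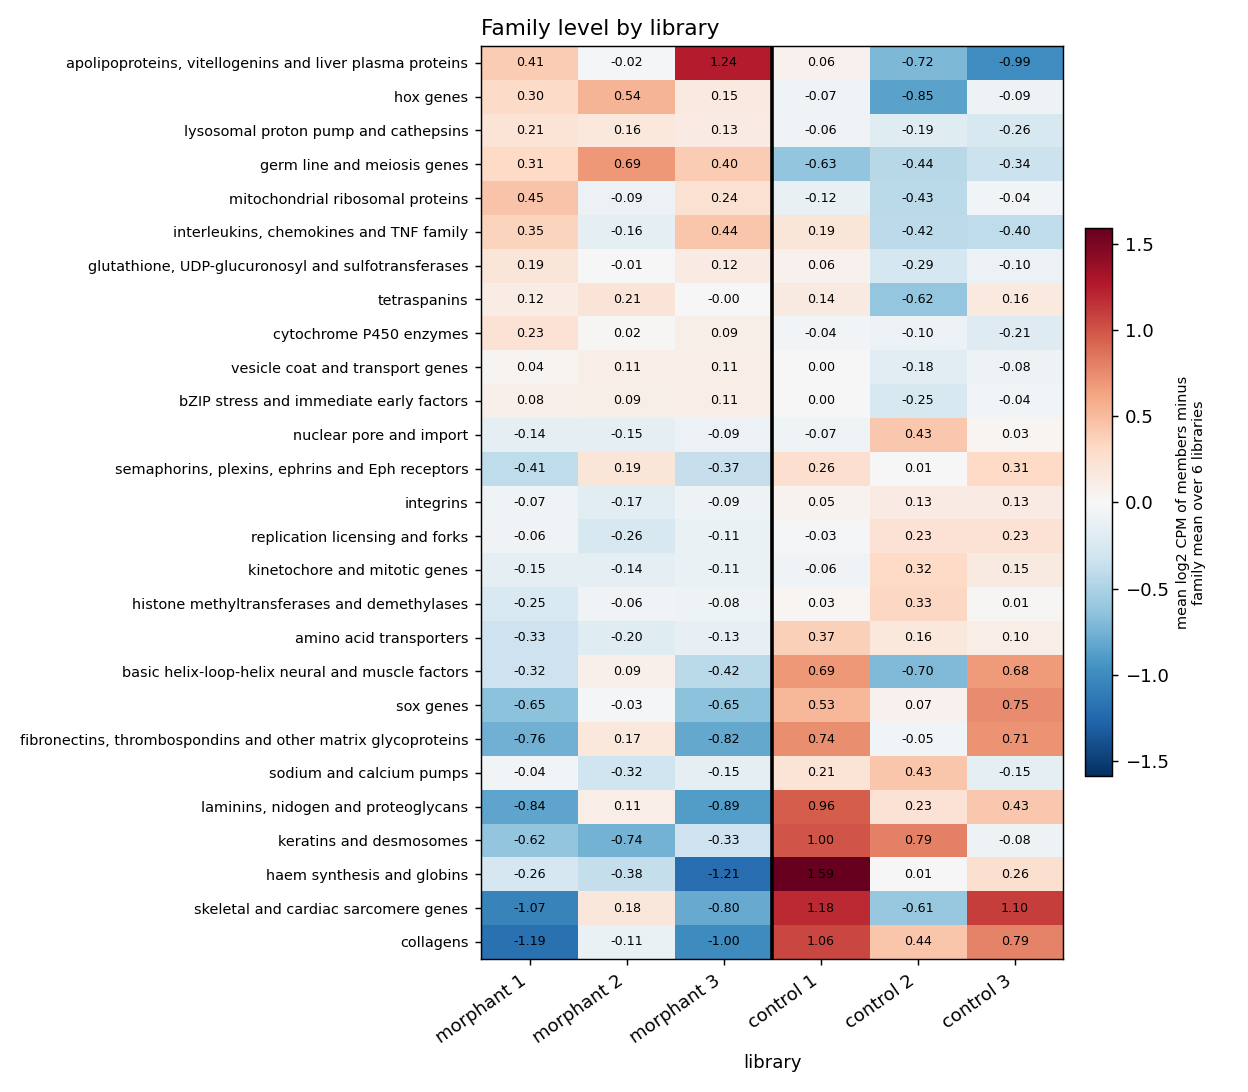
Mean log2 CPM of the tested members of each of the 27 families described, in each library, less the family's mean over the 6 libraries, with morphants on the left and controls on the right of the black line. Collagens and keratins are lower in each morphant than in each control, while for sarcomere genes control 2 lies below morphant 2.

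Developmental transcription factors were also on the lower side. Sox genes had 8 of 23 members (34.8%) lower and 1 higher, with a median of -0.80, and a mean log2 CPM of 2.05 ± 0.36 in morphants and 2.94 ± 0.35 in controls (SD, n = 3 each). sox5, a factor of cartilage and neural crest, had 7.69, 16.2 and 8.20 CPM in morphants, against 29.3, 43.4 and 32.7 CPM in controls (log2 fold change -1.72 ± 0.34, edgeR adjusted p = 0.12). sox9a, of cartilage, had 8.36, 17.2 and 8.12 CPM in morphants, against 56.8, 13.8 and 54.2 CPM in controls, with control 2 below morphant 2. The neural genes sox3 and sox2 were at 3.22 to 9.05 CPM and 0.371 to 2.09 CPM in morphants, against 11.8 to 17.7 CPM and 3.05 to 6.97 CPM in controls. Basic helix-loop-helix factors of nerve and muscle had 8 of 36 members (22.2%) lower and 1 higher, with a median of -0.61. Their mean log2 CPM was 3.03, 3.44 and 2.93 in morphants, against 4.04, 2.65 and 4.03 in controls. Control 2 thus lay below every morphant, and the groups overlapped. her4.5, a Notch target whose counts were not all whole, had 14.2, 20.5 and 14.1 CPM in morphants, against 47.3, 30.0 and 70.1 CPM in controls, and her8a averaged 6.06 ± 0.504 CPM in morphants and 14.0 ± 1.70 CPM in controls (SD, n = 3 each). The proneural gene ascl1b was at 0.158 to 0.863 CPM in morphants and 2.14 to 4.16 CPM in controls. Without morphant 2 and control 2 the medians were -1.25 for sox genes and -1.08 for the basic helix-loop-helix factors. Neural markers, which include sox2 and sox3, summed to 54.3 to 172 TPM in morphants and 118 to 214 TPM in controls. Their part in these values was not tested.

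Families of the nucleus and of the cell cycle were lower by small amounts. Histone methyltransferases and demethylases had 19 of 67 members (28.4%) lower and 2 higher, with a median of -0.36. The kdm demethylases alone had 9 of 20 lower and 0 higher. kdm5bb, which removes methyl groups from lysine 4 of histone H3, had 26.7, 39.5 and 39.2 CPM in morphants, against 65.9, 117 and 63.6 CPM in controls (log2 fold change -1.22 ± 0.29, edgeR adjusted p = 0.15). kmt2d, a methyltransferase of the same lysine, had 18.1, 20.2 and 27.7 CPM in morphants, against 35.1, 54.2 and 36.8 CPM in controls. kdm2ab and kdm6a had log2 fold changes of -1.39 ± 0.37 and -1.20 ± 0.34, and control 2 was the highest library for each gene named. Members were long, at a median of 4.16 kb, and with the length correction the family median was -0.08 and 6 members (8.96%, against 7.16% of all genes) were lower.

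Nuclear pore and import genes had 13 of 41 members (31.7%) lower and 0 higher, with a median of only -0.10. xpo1b, an exportin, had 46.3, 57.2 and 48.0 CPM in morphants, against 109, 169 and 102 CPM in controls (log2 fold change -1.33 ± 0.24, edgeR adjusted p = 0.11), and its paralogue xpo1a 162, 194 and 185 CPM in morphants, against 261, 388 and 275 CPM in controls. The scaffold nucleoporins nup155 and nup188 had log2 fold changes of -0.96 ± 0.22 and -0.99 ± 0.28. In these genes too control 2 was the highest library. Members had a median length of 3.47 kb, and with the length correction 2 of 41 (4.88%, against 7.16% of all genes) were lower. Leaving out morphant 2 and control 2 gave 9 (22%, against 14.0% of all genes) lower and 6 (14.6%, against 11.7%) higher.

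Kinetochore and mitotic genes had 22 of 67 members (32.8%) lower and 3 higher, with a median of -0.35, and one of those higher was plk2a, described above. smc3, a cohesin subunit, had 51.3, 56.1 and 58.5 CPM in morphants, against 96.5, 142 and 106 CPM in controls (log2 fold change -1.05 ± 0.19, edgeR adjusted p = 0.11). top2a, a topoisomerase of dividing cells, had 64.0, 85.3 and 74.9 CPM in morphants, against 134, 217 and 158 CPM in controls. cdca7b, a relative of a human cell cycle gene linked to DNA methylation, had 38.2, 37.0 and 36.6 CPM in morphants, against 56.9, 59.5 and 61.7 CPM in controls. Control 2 was the highest library for smc3 and top2a. The mitotic median was -0.23 without morphant 2 and control 2. There 13 members (19.4%, against 14.0% of all genes) were lower and 2 (2.99%, against 11.7%) higher. Replication genes had 11 of 47 members (23.4%) lower and 0 higher, with a median of -0.28. orc1, of the origin recognition complex, had 23.8, 21.7 and 27.4 CPM in morphants, against 41.0, 44.9 and 44.9 CPM in controls (log2 fold change -0.84 ± 0.18, edgeR adjusted p = 0.13). The helicase gene mcm5 and the ribonucleotide reductase genes rrm1 and rrm2 had log2 fold changes of -0.60, -0.59 and -1.21. Without morphant 2 and control 2 the replication median was -0.10, and 8.33% of members were lower against 14.0% of all genes, so the excess of lower members rested on those libraries.

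Transporters of nutrients and ions closed the lower side. Amino acid transporters had 18 of 58 members (31.0%) lower and 4 higher, with a median of -0.53 and a mean log2 CPM of 2.95 ± 0.10 in morphants and 3.38 ± 0.14 in controls (SD, n = 3 each). Besides slc38a5a, the glutamate transporter gene slc1a3a had 24.5, 40.3 and 21.8 CPM in morphants, against 127, 64.4 and 138 CPM in controls (log2 fold change -1.93 ± 0.36, edgeR adjusted p = 0.11), and slc7a3a, a cationic amino acid transporter, had 33.7, 38.1 and 40.0 CPM in morphants, against 76.5, 120 and 66.8 CPM in controls. Solute carriers as a whole had 43 of 313 members (13.7%) lower and 25 (7.99%) higher, with a median of -0.07. Sodium and calcium pumps had 8 of 24 members (33.3%) lower and 2 higher, with a median of -0.81. atp1a1b, a sodium pump subunit, had 19.4, 29.5 and 16.3 CPM in morphants, against 54.8, 30.7 and 62.0 CPM in controls, and the muscle gene atp2a1l overlapped between the groups through control 2 at 13.5 CPM. Pumps lay on both sides under other settings, with 11 of 25 lower and 6 (24%, against 11.7% of all genes) higher without morphant 2 and control 2, and 6 of 24 lower and 5 higher with the length correction.

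**Figure D4:**
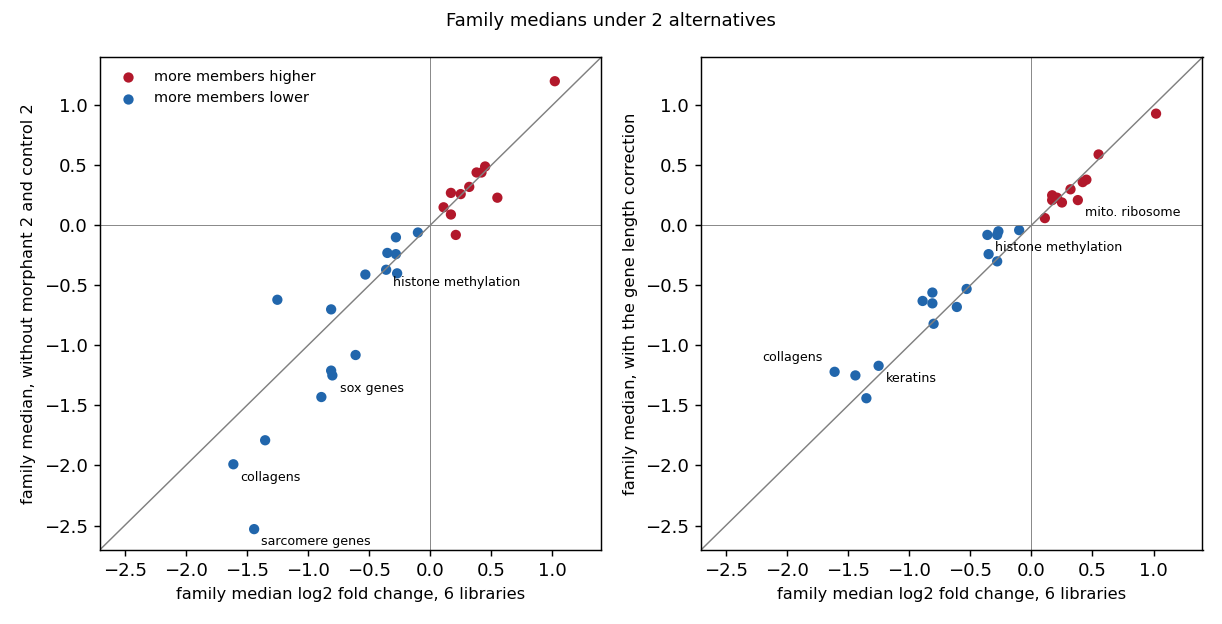
Median log2 fold change of each of the 27 families described with all 6 libraries (x axis), against the median without morphant 2 and control 2 (left, y axis) and with the gene length correction (right, y axis), with the diagonal in grey. Of the 27 families, 26 keep their sign on the left, and sarcomere genes move to -2.53, while on the right histone methylation genes move to -0.08.

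Of the 27 families described, 26 had a median of the same sign without morphant 2 and control 2, tetraspanins being the exception, and 18 still had at least 2 times the background share there. The others were nuclear pore genes, histone methylation genes, replication genes, mitotic genes, hox genes, tetraspanins, vesicle genes, integrins and the conjugation enzymes. With the length correction 20 of the 27 had at least 2 times the background share. The other 7 were mitochondrial ribosomal proteins, nuclear pore genes, histone methylation genes, replication genes, interleukins and chemokines, tetraspanins and the conjugation enzymes. Further families, or described ones in their other direction, reached that share under these settings though not in the main fit. Without morphant 2 and control 2 these were 3 toward higher and 6 toward lower levels, and with the length correction 4 and 5. Lower in both were cytosolic ribosomal proteins, Fgf ligands and receptors, and tubulins. Higher in both were oxidative phosphorylation genes and the sodium and calcium pumps. With at least 5 CPM in 3 libraries, 25 of the 27 had that share, all but mitochondrial ribosomal proteins and germ line genes. Counted in the same way, 3 others reached it toward higher and 4 toward lower levels, Fgf ligands and receptors among the latter.

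A mechanical grouping by the letters before the first digit of the symbol gave 112 stems with at least 15 tested genes. Toward higher levels the largest shares were those of snx (33.3% of 33 genes), cyp (26.1%), fkbp, a stem of immunophilins, and atg, of autophagy (23.5% of 17 genes each), followed by tspan (22.2%), sept, of the septins, and s (20% of 15 genes each), and mrpl (19.1%). The stem s mixes unrelated genes. Toward lower levels the stems were col (55.3%), kdm (45% of 20 genes), nup (38.1%), eef (37.5% of 16 genes), sox (34.8%), aldh and pik (33.3% each) and sema (28.6%). Some stems also exceeded the background in the other direction, with sema at 17.9%, pik at 13.3% and aldh at 11.1% higher, and fkbp at 11.8% lower. The nup median was 0.01. The eef stem holds translation elongation factors, with 6 lower and 0 higher. In the wider family of initiation and elongation factors 13 of 82 members (15.9%) were lower and 6 (7.32%) higher.

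The 62 families not described had medians between -0.52 and 0.47. Several large families of basic cell function had shares under the background of 7.58% higher and 9.46% lower. Of 127 splicing factors 3 (2.36%) were higher and 6 (4.72%) lower, of 53 proteasome subunits 0 were higher and 2 (3.77%) lower, and of 92 cilia genes 1 (1.09%) was higher and 3 (3.26%) lower. Genes with tmem names had 25 of 176 members (14.2%) higher and 6 lower, just short of 2 times the background. Genes with LOC names showed no excess in either direction, with 77 higher (4.21%) and 98 lower (5.35%) of 1831. With the stricter filter on low counts only 454 of them remained, with 9.69% higher, against 8.81% of all genes, and 9.47% lower, against 11.9%. Under that filter 648 genes with si: names had 9.88% higher and 14.8% lower.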

How the data were processed

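RNA-seq was done on 3 morphant and 3 control samples. Per the file headers, the authors deposited an estimated count, an FPKM and a TPM value per gene and library. Deposited FPKM and counts gave gene lengths, and deposited TPM values gave summed levels. The submitters' processing notes name the build GRCz11 and the tools DESeq2 1.30.1, HTSeq 0.12.4 and HISAT2 2.2.1. Their roles, the annotation and the strand setting were not given in the sources used here. Overlapping and antisense genes therefore cannot be told apart. Of values, 13.5 to 15.1% per library were not whole, among them counts of vrk2, slc6a9, bif1.1, kdm6a, rrm2, zp3a.2 and myhz1.3, which are uncertain where reads were shared between copies. 19 symbols stood on 2 rows. The methylation table was not used here.

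Counts were rounded, filtered by edgeR's filterByExpr and scaled by TMM. The test was the two-sided edgeR 4.0.16 quasi-likelihood F-test in R 4.3.3, with the group as the only term and Benjamini-Hochberg adjustment over 18846 genes, at a threshold of 0.05. CPM values are TMM-normalised. The SE of a log2 fold change was derived from the test, as its absolute value divided by the square root of the F statistic. The fit was run on simulated counts with planted changes. These were drawn without a shifted library or a length trend, so that run does not cover such features of these libraries. Replicates differed by more than sampling noise. The labels do not say whether replicate numbers pair the samples. Correlations of deviations between samples of the same number were 0.03, -0.09 and -0.16, which cannot settle it. The main fit used no pairing.

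Families were symbol rules, from which 50 symbols were removed by name or function, and may overlap. Named are genes called with an established symbol, the next 15 on either side by p-value with at least 5 CPM and no overlap, and up to 4 members at 1 CPM or more of each family with at least 8 tested members and 2 times the background share. Families, rules and alternatives were chosen with earlier results of these data known. A called gene and a family are not reported here. The alternatives were DESeq2 1.42.0, limma-voom (limma 3.58.1), RLE and upper-quartile scaling, no filter, at least 5 CPM in 3 libraries, a length offset (loess span 0.5), leaving out each library, leaving out morphant 2 and control 2, and a replicate block.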

Additional observations from a re-analysis of the deposited data

How the results depend on the processing

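The gene values compared are of 139 genes, most of them not called, and only the 11 called ones could lose the threshold. Of 2075 gene values under the 15 alternatives, 1739 kept their direction and side of the threshold, 61 lost the threshold, 271 passed it only there and 4 changed sign. Those 4 were of dnmt3ba: its log2 fold change of -0.04 was 0.32 with the length offset, 0.10 without morphant 2 and control 2, 0.25 without control 2 and 0.15 without morphant 1, and it ranged between -0.20 and 0.25 with single libraries left out. The count of genes higher at an adjusted p under 0.05, 10 in edgeR, was 595 with DESeq2, 21 with the length offset, 490 without morphant 2 and control 2 and 29 with no filter, and the count of genes lower, 2, was 631, 5, 869 and 8 in that order. With single libraries left out these counts ranged between 0 and 31 higher and between 0 and 46 lower. Without adjustment, 2228 genes were higher at p under 0.05 without morphant 2 and control 2, and with single libraries left out 863 to 1543 higher and 855 to 1987 lower. With the replicate number as a block, 0 genes were higher and 0 lower at an adjusted p under 0.05, while 1264 and 1253 were at an unadjusted p under 0.05; morphant 1 was the one morphant that correlated best with the control of its own number. Of the 11 called genes reported, 11 were called by DESeq2, under both other scalings, both filters, without control 2 and without both morphant 2 and control 2, 10 with the length offset, 9 by limma-voom, 7 without morphant 2, 1 without control 1 and 0 with the block or without control 3, morphant 1 or morphant 3. Of 405 family medians under alternatives, 370 moved by less than the spread between replicates and 35 by more, 6 of them without morphant 2 and control 2 and 3 with the length offset. The cause of these moves was not tested. The spread was taken from all 6 libraries, morphant 2 and control 2 among them. It is thus no independent measure for the settings that leave these libraries out. Genes under 1 CPM in a group, such as tdrd9 in controls, rest on few reads.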

Other observations

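Genes without an established symbol, picked out after their values were seen, had some of the largest differences between the groups. LOC100537178, the eleventh called gene reported, had 31.9, 31.1 and 18 CPM in morphants, against 2.04, 0.762 and 1.71 CPM in controls (log2 fold change 4.17 ± 0.45, edgeR adjusted p = 0.039), and its counts were not all whole. LOC108182399 had 13.4, 13.2 and 12.6 CPM in morphants, against 1.21, 1.89 and 0.769 CPM in controls (log2 fold change 3.33 ± 0.39, edgeR adjusted p = 0.055). si:dkey-204l11.1 had 15.7, 26.2 and 20.0 CPM in morphants, against 0.477, 1.56 and 0.256 CPM in controls (edgeR adjusted p = 0.069). si:ch73-56d11.5 had 16.1, 15.3 and 18.3 CPM in morphants, against 0.390, 0 and 0.513 CPM in controls (edgeR adjusted p = 0.075). Every morphant library lay above every control library for each of these genes. What they encode was not looked up.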
